A study of Mus musculus with 12 samples.

Results

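Nrg1 (ENSMUSG00000062991) encodes neuregulin 1, a growth factor of the ERBB family of ligands, and it was examined here as 1 of the 2876 genes that at least 1 of 2 deposited tables of mouse mammary tumors listed. The gene was selected on its measured values, since its level was higher than in control tumors after both rexinoids in earlier results from the same files, so those differences are given as a description and were not tested. One table compared V-125 with control (1589 genes), the other compared bexarotene with control (1784 genes), and Nrg1 was among the 497 genes in both. Each table stopped where the p-value of the study's own comparison, before adjustment, reached 0.05, so every gene described below had already been selected for a difference.

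RNA was sequenced from 12 mammary tumors of female MMTV-Neu mice. In these mice the MMTV promoter drives the Neu transgene, the rat form of the receptor ERBB2, in mammary epithelium, so all groups share that receptor as the driver of their tumors. Mice that had developed a palpable tumor received the control diet, V-125 at 100 mg/kg diet or bexarotene at 100 mg/kg diet, each for 10 days, with 4 tumors per group. Both agents are rexinoids, agonists of the retinoid X receptor (RXR), and the question was how the newer agonist V-125 and the approved drug bexarotene differ in what they change in the tumor. Counts per tumor were available for V-125 and control, and group means for bexarotene. Because whole pieces of tumor were sequenced, more RNA per cell and more cells that make it cannot be told apart. Of the luminal epithelial markers, Epcam was abundant in all 8 tumors (28485 to 53468 normalized counts), as were Kit and Cdh1.

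Neuregulin 1 is made as a membrane-bound or secreted precursor from many promoters and spliced forms. Its EGF-like domain binds ERBB3 and ERBB4, which pair with ERBB2, a receptor with no ligand of its own, and the pairs signal through the RAS-ERK and PI3K-AKT cascades. In the mammary gland this route takes part in ductal and lobular growth and in milk production. RXR acts as the partner of many nuclear receptors, including those for retinoic acid, vitamin D, thyroid hormone, fatty acids and oxysterols.

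The gene lies on the minus strand of chromosome 8 at chr8:31814551-32884029 (GRCm38) and spans 1069479 bases. GENCODE annotates 18 transcripts of 1 to 13 exons, which begin in 5 separate groups of start sites. The outermost group starts 2 transcripts near 32884029, the next starts 8 transcripts between 32009491 and 32009109, and a further group starts 6 transcripts between 31918391 and 31917650. The 13 transcripts with a coding part all carry the coding sequence of the EGF-like domain, in 1 of 2 forms. The sequences are shown because this is the receptor-binding part of the ligand and because the gene-level counts below sum over both forms. Capitals mark the codons of its 6 conserved cysteines, and both runs are read 5′ to 3′ on the coding strand.

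Variant 1, in 8 transcripts: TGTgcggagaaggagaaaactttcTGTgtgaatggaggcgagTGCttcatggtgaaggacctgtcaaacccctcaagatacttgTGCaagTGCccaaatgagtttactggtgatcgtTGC
Variant 2, in 5 transcripts: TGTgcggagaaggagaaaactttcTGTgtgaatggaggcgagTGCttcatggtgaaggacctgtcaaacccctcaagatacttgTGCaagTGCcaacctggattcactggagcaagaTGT

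Both stretches are 120 bases long, encode 40 residues, share their first 94 bases and differ at 12 positions after that, beyond the fifth cysteine codon. The first 89 bases come from 1 shared exon, chr8:31849310-31849398. The last 31 bases come from chr8:31837698-31837728 in variant 1, the ending known as beta, and from chr8:31838298-31838328 in variant 2, the ending known as alpha. Beta forms are known to bind the receptors more strongly than alpha forms. The deposited values do not separate the forms or the start sites.

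**Figure D1:**
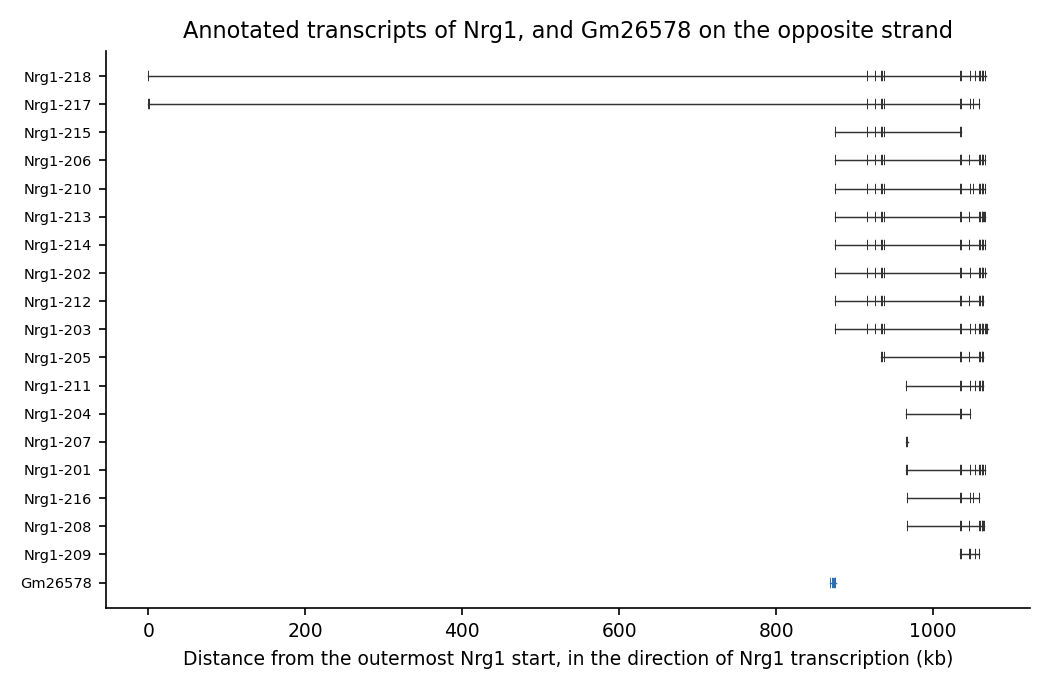
Annotated transcripts of Nrg1, 1 per line, by distance in kb from the outermost start in the direction of transcription (thick marks are exons, drawn at least 1.5 kb wide, and thin lines introns), with the exons of Gm26578 in blue. The 2 transcripts that span most of the gene start at 0, and the 8 that start in the second group begin where Gm26578 lies.

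Nrg1 was low in control tumors and higher in every V-125 tumor. Control replicates 1 to 4 had 17, 1, 9 and 8 reads, and the V-125 tumors, in the same order, had 193, 67, 104 and 304. After division by the size factor of each tumor, the normalized counts were 19.6, 1.16, 7.19 and 6.83 in control tumors, and 197, 63.6, 103 and 321 in V-125 tumors. The groups did not overlap, and the lowest V-125 tumor (replicate 2) stood 3.25 times above the highest control tumor (replicate 1). The V-125 mean was 171 ± 115 (SD, n = 4), the control mean was 8.69 ± 7.78 (SD, n = 4), and their ratio was 19.7 or 4.30 on the log2 scale.

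This ratio rests on few reads in the control group. The single read in control replicate 2 allows 0.0253 to 5.57 reads (exact 95% Poisson interval), and the 17 reads in control replicate 1 allow 9.90 to 27.2. The 67 reads of the lowest V-125 tumor allow 51.9 to 85.1, above the interval of every control tumor. Such intervals cover counting error only. Leaving out 1 tumor at a time moved the ratio of means between 14.0 (without V-125 replicate 4) and 33.9 (without control replicate 1). The size thus depended on those tumors. The direction could not change, since the groups did not overlap.

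Between 15571690 and 22574865 reads were counted on genes per tumor. In FPKM, which divides the count by these totals and by gene length, Nrg1 was at 1.07, 0.339, 0.551 and 1.72 in the V-125 tumors by replicate number, and at 0.105, 0.00619, 0.0385 and 0.0365 in the control tumors. Mean FPKM was 0.919 ± 0.615 (SD, n = 4) against 0.0467 ± 0.0419 (SD, n = 4), so Nrg1 was a low-level transcript on this scale also with V-125. The deposited length of 10351 bases joins all annotated exons and is 1.91 times the longest transcript and 4.95 times the median one, and FPKM is lower by that factor than it would be for 1 such transcript.

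The tumors of each group differed widely in Nrg1. With V-125 the highest tumor, replicate 4, held 5.05 times as much as the lowest, replicate 2, and the coefficient of variation was 66.9%. In relative terms the control tumors varied more, with a ratio of 17.0 between the highest and the lowest, a single read in the latter, and a coefficient of variation of 89.5%. The SD of log2(normalized count + 1) was 1.02 with V-125 and 1.34 in control tumors. Over both groups this within-group SD was 1.19 for Nrg1, while the median over the 1372 listed genes with a mean normalized count of at least 10 was 0.43. Of those genes, 109 had a larger within-group SD than Nrg1. Counting error adds to such an SD where reads are few, as in the control tumors. The variance of the Nrg1 normalized count was 74.6 times its counting variance with V-125 and 6.82 times in control tumors. Relative to the control mean, the V-125 tumors stood at 22.7, 7.32, 11.9 and 37.0 times in replicates 1 to 4.

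Bexarotene tumors were available as the authors' group means, so no spread over tumors can be given. The authors' mean of the Nrg1 normalized count was 108 with bexarotene and 8.65 in the control tumors of that table, a ratio of 12.5 or 3.64 on the log2 scale. Both tables use the same control tumors, and their control means for Nrg1 differ by a factor of 1.00. At the matched dose and time, the V-125 mean was 1.58 times the bexarotene mean after the latter was put on the V-125 scale. Of the 4 V-125 tumors, 2 lay above and 2 below the bexarotene mean, and no control tumor reached it. The difference between the means of the agents was smaller than the SD among V-125 tumors. It was not tested, since only group means were available for bexarotene.

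**Figure D2:**
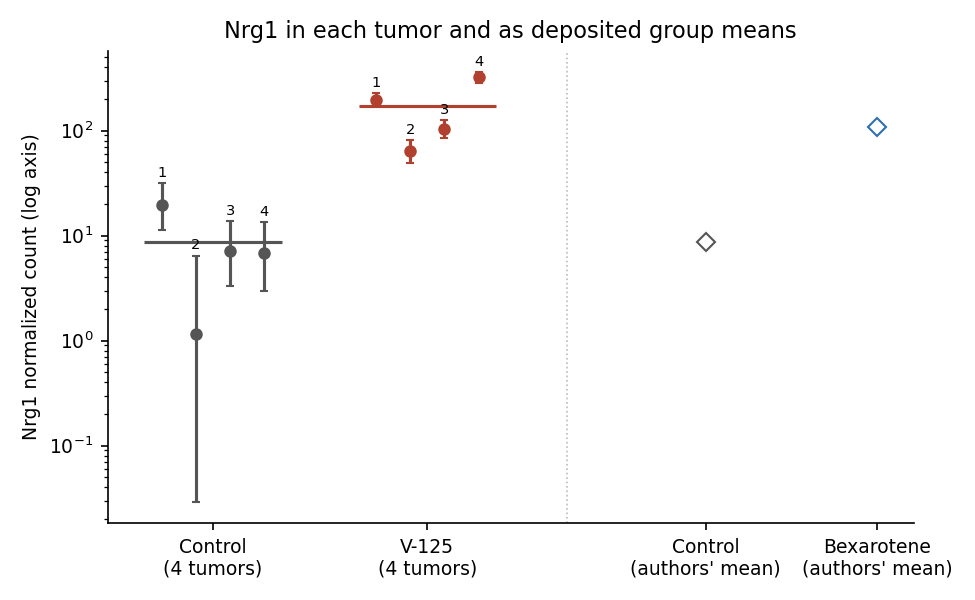
Nrg1 normalized counts on a log axis. Filled points are single tumors labelled by replicate with exact 95% Poisson intervals, horizontal lines are group means, and open diamonds are the authors' group means of the bexarotene table. The V-125 tumors sit between 63.6 and 321, above all control tumors, and the bexarotene mean of 108 falls inside the V-125 range.

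Among the genes of the V-125 table Nrg1 ranked 26 of 1505 by the ratio of means, and 6 of the 1367 with a mean normalized count of at least 10. The remaining 84 of the 1589 had no reads in 1 of the groups and gave no ratio. A higher mean in V-125 tumors was found for 817 genes, and the median log2 ratio of those with a ratio was 0.86. Groups did not overlap for 614 of the 1589 genes (38.6%), with 335 higher and 279 lower. The selection of the table used this contrast, so nothing is read from that share. Of the 335, 12 had no reads in any control tumor, and of the others 1 gene (Gm11464, 2.98 to 19.4 normalized counts with V-125 and at most 0.799 in control tumors) had a wider gap than Nrg1 between its lowest V-125 and highest control tumor. Of the 5 genes above Nrg1 in the ranking at that level, the groups overlapped for 3 (Apoc4, Cd2, AC168977.2) and did not for Ly6k and for Scgb1b27, a secretoglobin, which was at 52.9 to 1844 with V-125 and 0 to 17.6 in control tumors. In the bexarotene table Nrg1 ranked 24 of 1709 genes with a ratio. There, 772 genes had a higher mean than control, and the median log2 ratio of those with a ratio was 0.79.

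**Figure D3:**
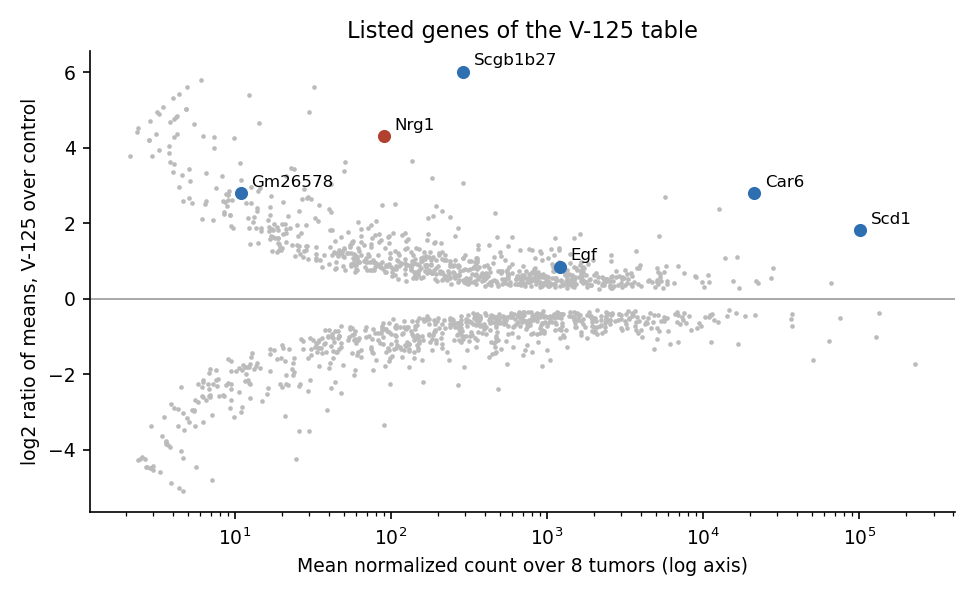
Each point is a gene of the V-125 table with reads in both groups, placed by its mean normalized count over 8 tumors (log axis) and by the log2 ratio of the group means. Nrg1 (red) lies at 4.30, above most genes of a similar level, and the empty band around 0 reflects that only genes selected for a difference were listed.

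V-125 replicate 1 and, less so, control replicate 1 stood apart from the other tumors of their groups. Across listed genes with a mean of at least 10, the log2 values of V-125 replicate 1 correlated with the other 3 at r = 0.91 to 0.92, whereas those 3 correlated with each other at 0.95 to 0.96 (a description over genes, which are not independent). For control replicate 1 these values were 0.94 to 0.95, against 0.96 to 0.97 among the other control tumors. The Nrg1 ratio was 18.7 without V-125 replicate 1 and 33.9 without control replicate 1, the control tumor with the most Nrg1. V-125 replicate 1 also held most of the T cell marker reads, as Cd2 was at 195 there and at 3.17 to 23.8 in the other V-125 tumors, with 0 to 5.59 in control tumors. Only 2 of 11 T cell markers (Cd2 and Cd28) were listed for V-125, and both were too low to be tested. Their summed normalized count was 261 in V-125 replicate 1. It was lowest, at 3.17, in replicate 4, the V-125 tumor with the highest Nrg1. No T cell content is read from these sums.

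The levels of other cell type markers also differed between the groups, but no marker that was tested passed edgeR's quasi-likelihood test after adjustment. Like all listed genes, these markers had been selected for a difference. Groups did not overlap for 38.6% of the whole V-125 table, so no cell composition is read from them. The summed normalized counts of the 4 listed of 12 myoepithelial markers (Acta2, Trp63, Cdh3, Lgals7) were 215 to 701 with V-125 and 835 to 1368 in control tumors. These sums did not overlap, and all 4 genes had lower means with V-125. As single genes, Acta2, Trp63 and Lgals7 overlapped between the groups and only Cdh3 did not. Acta2 made up the largest part of the sum in the control tumors. The 5 listed of 13 luminal epithelial markers summed to 46289 to 55694 against 58217 to 81817, but the members went both ways. Epcam, Kit and Cdh1, which make up most of the sum, had lower means with V-125, while Esr1 (470 ± 60.1 against 326 ± 115) and Prlr (1436 ± 291 against 1087 ± 167) had higher ones (SD, n = 4). Of 10 Schwann cell markers 2 were listed. Sox10, which mammary epithelial cells also make, was abundant in every tumor, at 12029 to 14193 against 14404 to 18637, and so does not mark Schwann cells here, and S100b was at 98.1 to 259 against 341 to 493. The 3 listed of 11 endothelial markers (Kdr, Egfl7, Eng) summed to 1852 to 2289 with V-125 and 1176 to 1409 in control tumors, and Lipe, the 1 listed of 10 adipocyte markers, was at 454 to 608 against 248 to 400. The 2 listed macrophage markers differed in direction. Itgam was at 30.7 to 60.6 with V-125 and 65.5 to 89.0 in control tumors, with no overlap, while Fcgr1 was at 501 in V-125 replicate 1 and at 100.5 to 130 in the other 3, within the control range of 59.1 to 138. The part of these markers in the Nrg1 values was not tested, and no fibroblast marker was listed for V-125.

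In the bexarotene table, 1012 of the 1784 genes (56.7%) had a lower mean than control, and the median log2 ratio of those with a ratio was −0.56. The 7 of 12 macrophage markers listed there all had a lower mean (for Cd14, 310 against 1548 as the authors' means). Of 4 listed myoepithelial markers 3 had a lower mean, such as Krt17, a basal keratin, at 0.275 against 13.1, and Myh11, a smooth muscle myosin, had a higher one, at 113 against 39.4. Cdh3 was listed in both tables, with means of 58.7 with V-125 and 57.5 with bexarotene against 204 and 203 in the control tumors. Of 10 adipocyte markers, Fabp4 and Plin4 had higher authors' means with bexarotene, at 530 against 157 and 52.4 against 11.3. Their part in the Nrg1 mean was not tested.

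The genes whose pattern over the 8 tumors was most like that of Nrg1 were sought by a distance, the root mean square difference in log2(normalized count + 1) after each gene's control mean was subtracted. Among listed genes with a mean normalized count of at least 10, the 5 nearest included Car6 at 1.39, Gm26578 at 1.46, Gm16025 at 1.51 and Gm16120 at 1.70 log2 units. The distance used the V-125 contrast that selected the genes, so it is a description. Car6, a secreted carbonic anhydrase, was by replicate number at 38599, 32786, 37210 and 40669 with V-125 and at 3298, 2921, 12218 and 3158 with the control diet. Its V-125 tumors thus lay close together while those of Nrg1 did not. Gm16025 was at 659, 113, 94.3 and 458 with V-125 and at 34.6, 39.3, 53.5 and 17.9 with the control diet, so that it was high in V-125 replicates 1 and 4, the tumors that were also high in Nrg1. The nearest set was not stable, since without V-125 replicate 4 it shared only 1 gene, Car6, with the set from all tumors, and without V-125 replicate 3 or control replicate 2 it shared 2. It shared 3 without V-125 replicate 1 or 2, or without control replicate 1 or 4.

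**Figure D4:**
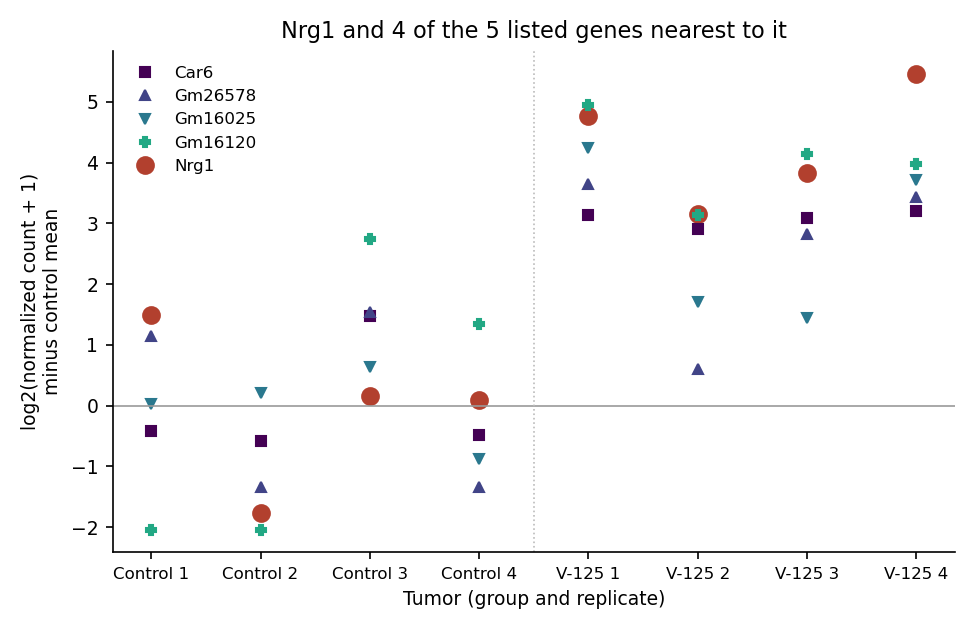
log2(normalized count + 1) minus the control mean of each gene, by tumor, for Nrg1 (large red points) and 4 of the 5 nearest listed genes. All of them are above their control mean in every V-125 tumor, and in V-125 replicate 4 Nrg1 lies above the others.

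Of the 5 nearest genes, Gm26578 (ENSMUSG00000097928) overlaps Nrg1 itself. It is a lincRNA on the plus strand at chr8:32008504-32015759, and its exons share 482 bases, chr8:32009010-32009491, with Nrg1 exons, at the first exons of the 8 transcripts of the second start group. The shared bases make up 10.5% of the deposited Gm26578 length and 4.66% of that of Nrg1. Gm26578 had normalized counts of 30.7, 2.85, 16.9 and 26.4 in the V-125 tumors and of 4.61, 0, 6.39 and 0 in the control tumors, by replicate number. The groups overlapped at V-125 replicate 2, which was also the V-125 tumor lowest in Nrg1, and the reads behind these values were 30, 3, 17 and 25 against 4, 0, 8 and 0. The mean was 19.2 ± 12.3 (SD, n = 4) against 2.75 ± 3.26 (SD, n = 4). Whether reads were counted by strand is not given in the sources used here, so reads of the lincRNA and of Nrg1 in the shared part cannot be told apart. Gm26578 was not listed for bexarotene.

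None of the 10 nearest protein-coding genes on chromosome 8 was listed in either table used here, but most genes were not. Together the tables listed 2876 genes, where 55450 are annotated, so nothing is read from this absence. The 10 genes are Dusp26, Rnf122, Tti2, Mak16 and Fut10 on one side and Wrn, Purg, 5930422O12Rik, Tex15 and Ppp2cb on the other. The closest, the helicase gene Wrn, lies 350354 bases from Nrg1, and Fut10 lies 552812 bases away on the other side. No protein-coding gene overlaps Nrg1.

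The ERBB pathway was followed through 6 lists of genes, with 2 further lists for RXR, its partners and known responders. Of 143 genes in the 8 lists, 31 were listed in either table, 16 for V-125, 23 for bexarotene and 8 for both. The lists were chosen with earlier results known. Apart from Nrg1, 13 of the 15 listed for V-125 were abundant enough to be tested, and 1 passed an adjusted p-value of 0.05 in edgeR's quasi-likelihood test (Lpcat3, higher). Of all 1333 genes tested, 120 passed (9.00%), 68 higher and 52 lower. In 5 of the 15 every V-125 tumor lay above every control tumor and in 2 below, where 38.6% of the whole table did not overlap.

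Among 11 ERBB ligands, Egf was the other listed gene. Egf encodes epidermal growth factor, a ligand of EGFR. By replicate number its normalized counts were 1783, 1621, 893 and 1939 with V-125 and 756, 579, 1288 and 838 with the control diet. The groups overlapped, since V-125 replicate 3 was below control replicate 3, and the means of 1559 ± 463 and 865 ± 302 (SD, n = 4 each) gave a log2 ratio of 0.85 that did not pass the test (edgeR, adjusted p = 0.0613). With bexarotene the authors' mean was 1884 against 861, a log2 ratio of 1.13. Per length, Egf remained the more abundant transcript, at a mean FPKM of 7.67 ± 2.29 against 0.919 for Nrg1 with V-125, and 4.26 ± 1.48 against 0.0467 in control tumors (SD, n = 4). The log2 ratio to control was larger for Nrg1 than for Egf with either agent. None of the 4 ERBB receptors was listed in either table used here, and neither was any of 22 feedback inhibitors of the pathway.

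Of 16 genes for ligand shedding and processing, Furin and Pcsk6, both proprotein convertases, were listed for V-125. Furin was at 6180 to 7426 normalized counts with V-125 and 4941 to 5182 in control tumors, so the groups did not overlap, at a log2 ratio of 0.38 (adjusted p = 0.0597). Pcsk6 was at 33.8 to 82.6 against 46.3 to 216, with overlap (log2 ratio −1.16). For bexarotene, Adam8, a membrane metalloprotease, and Rhbdf1, a rhomboid-like protein that guides the sheddase ADAM17, had lower means than control, at log2 ratios of −1.08 and −0.49.

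Of 36 adaptors and kinases, Shc4, an adaptor that binds activated receptors, was listed in both tables. Its normalized counts were 164, 235, 605 and 223 with V-125 and 113, 172, 207 and 184 in control tumors, in replicate order. The groups overlapped, and V-125 replicate 3 was far above the rest (adjusted p = 0.0745). The log2 ratio of means was 0.86 with V-125 and 1.68 with bexarotene, where the authors' means were 540 and 168. Src, a cytoplasmic tyrosine kinase, was at 2155 to 2270 with V-125 and 2846 to 3126 in control tumors, and Pik3r2, a regulatory subunit of PI3-kinase, at 1250 to 1367 against 1518 to 1845. Neither overlapped, and neither passed the test (adjusted p = 0.0504 and 0.0642). Listed for bexarotene were Grb7 and Stat3 with lower means (log2 ratios −0.75 and −0.51) and Braf and Pik3r3 with higher ones (0.45 and 0.88).

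Of 16 transcription factors and effectors linked to ERK signaling, 3 appeared in the V-125 table and 4 in that of bexarotene. Ier3, an early response gene, had lower means with both, at log2 ratios of −0.82 with V-125 and −0.66 with bexarotene. Jun was at 1034 to 1670 with V-125 and 1248 to 2646 in control tumors (log2 ratio −0.60), and Ccnd1, which encodes cyclin D1, at 4613 to 7337 against 3357 to 6152 (0.47). All 3 overlapped between the groups and did not pass the test. Fos, Junb and Ier2 had lower authors' means with bexarotene, at log2 ratios of −1.12, −1.29 and −0.53. All 4 of these genes in the bexarotene table thus had lower means than control, as did 56.7% of the whole table.

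Among RXR and its partners, Nr4a2, an orphan receptor that pairs with RXR, was the gene listed in both tables. It was at 123, 141, 161 and 177 with V-125 and 119, 92.5, 75.9 and 91.3 in control tumors, with no overlap, at a log2 ratio of 0.67 (adjusted p = 0.0666). The log2 ratio with bexarotene was 0.97. Rxrg had reads in 2 V-125 tumors and in no control tumor and was too low to be tested. Rara, Rarg, Vdr and Thra, receptors for retinoic acid, vitamin D and thyroid hormone, were listed for bexarotene with log2 ratios of −0.66, −0.73, −0.90 and −0.55.

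Of 19 known responders to RXR or its partners, 4 appeared in the V-125 table and 5 in that of bexarotene. Lpcat3, a phospholipid-remodeling enzyme and target of liver X receptors, rose with V-125, from 1206 ± 108 to 1811 ± 290 (SD, n = 4 each; edgeR, adjusted p = 0.0458). All 4 V-125 tumors (1494 to 2156) lay above all 4 control tumors (1086 to 1348), and the log2 ratio was 0.59 with V-125 and 0.45 with bexarotene. Scd1, stearoyl-CoA desaturase, was at 181716, 107313, 212914 and 128970 with V-125 and 88995, 31481, 11716 and 47011 in control tumors, with no overlap and an adjusted p of 0.053. Its log2 ratio was 1.82 with V-125 and 0.92 with bexarotene. Cpt1a, which admits fatty acids into mitochondria, did not overlap either, at log2 ratios of 0.72 (adjusted p = 0.0666) and 0.67. Ucp3 was too low to be tested. Cyp26b1, an enzyme that breaks down retinoic acid, and Angptl4, a lipase inhibitor, were listed for bexarotene only, with log2 ratios of −2.03 and −2.38.

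**Figure D5:**
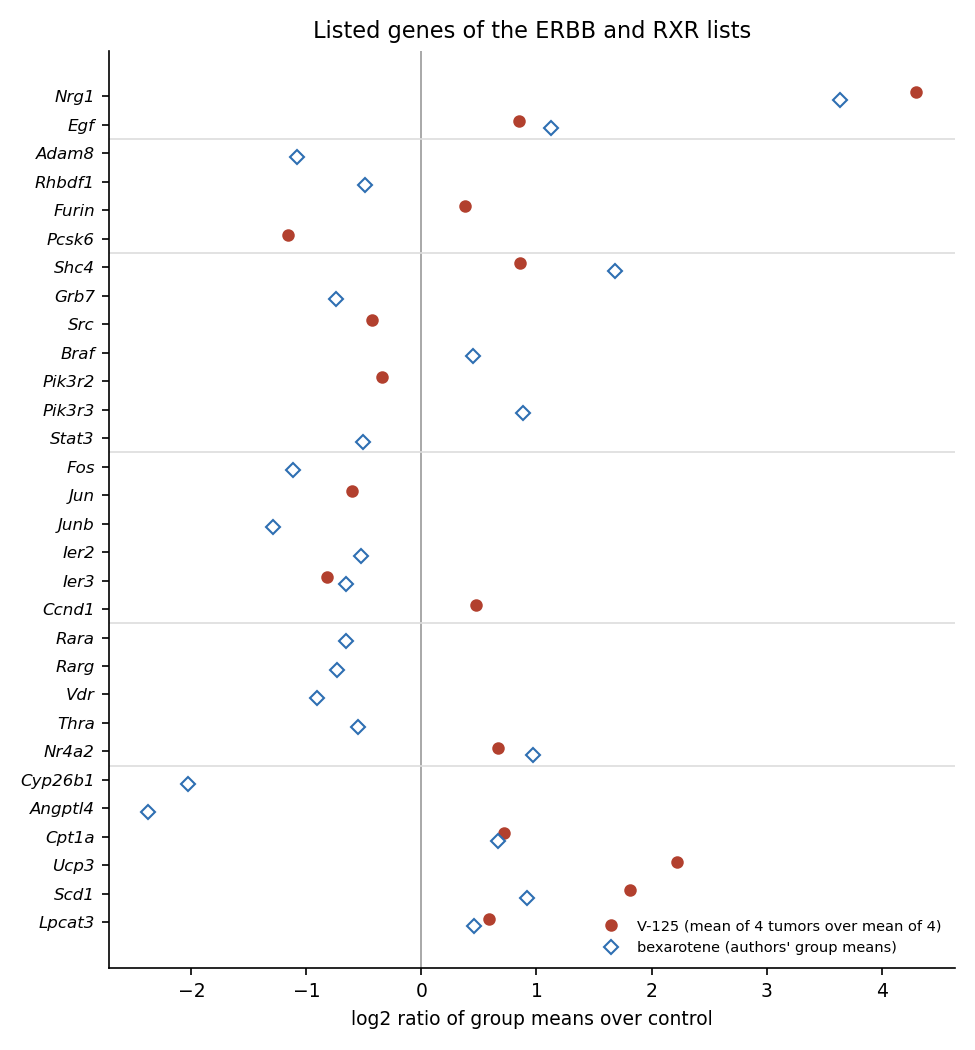
log2 ratio of the group mean over the control mean for the listed members of the ERBB, RXR and responder lists (Rxrg, with no control reads, is left out), with V-125 as filled red points and bexarotene as open blue diamonds, both against the same control tumors. A missing point means that the gene was not listed in that table. Nrg1, at 4.30 and 3.64, lies to the right of every other gene shown.

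The tests beside Nrg1 carry 2 limits. The adjustment covers genes already selected for a difference, and over all 55450 annotated genes no gene passed in edgeR (953 had an unadjusted p-value under 0.05) while 66 passed in DESeq2. The number passing also depended on single tumors, being 0 without V-125 replicate 2, V-125 replicate 4 or control replicate 2, 1 without control replicate 4, 29 without control replicate 1 and 237 without control replicate 3. No member of the lists passed without V-125 replicate 2 or 4, without control replicate 2 or 4, or without the filter on low counts.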

How the data were processed

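RNA of 12 mammary tumors (polyA-selected libraries) had been sequenced. The authors deposited raw read counts per gene and tumor for V-125 and control, normalized counts, a signal made by dividing each count by 1 size factor per tumor, and FPKM. For bexarotene the authors deposited group means of the normalized counts, a signal used here without an SD or test. The tables also hold the authors' own comparison of each gene, deposited as p-values before and after adjustment and as a log2 fold change. For bexarotene the authors deposited −log10 of the adjusted p-value too, and a second fold column that differs from the first and was taken as a score. Of these comparison columns only the unadjusted p-values were used, to find the limit of 0.05 that all listed genes were under. The submitters' processing notes name STAR (2.6.1d), featureCounts (1.5.0-p3) and limma. The genome build is not given in the sources used here. Of 1589 identifiers listed for V-125, 1583 were in GENCODE on GRCm38, 1526 of them with identical coordinates and the same summed exon length.

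Groups and replicate numbers came from the sample labels, and tumors were from different mice. Nrg1 and the gene lists were chosen with earlier results of these data known. Nrg1 was described with the mean ± SD, the ratio of means and exact Poisson intervals (95%). Listed genes were tested with edgeR (4.0.16, quasi-likelihood test, R 4.3.3) on the deposited counts with the authors' size factors after filterByExpr, with Benjamini-Hochberg adjustment over the 1333 genes tested and a threshold of 0.05. Alternatives were DESeq2 (1.42.0), limma-voom (limma 3.58.1), TMM, library totals, no filter, other scales, leaving out each tumor and the replicate number as a block. Likeness to Nrg1 was a root mean square distance on log2(normalized count + 1) among genes with a mean of at least 10. Named genes were Nrg1, the listed members of the pathway and marker lists, 4 of the 5 nearest listed genes and the 5 nearest protein-coding genes on each side. Genes named for a rank or gap (Scgb1b27, Ly6k, Apoc4, AC168977.2, Gm11464) were chosen after their values were seen. Results for 1 gene are not reported here. The EGF-like coding stretches were read from the GENCODE transcripts. Depth was 15571690 to 22574865 reads counted on genes per tumor.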

Additional observations from a re-analysis of the deposited data

Results flagged for a closer look

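The per-tumor values of the 39 named genes with counts were examined for 1 tumor far from the other 3 of its group, in 78 groups. This held in 8 groups, where chance flags about 1 in 20, or 3.9 groups here, and in neither group for Nrg1. The rate of 1 in 20 assumes independent, normally distributed values. Genes measured in the same tumors are not independent, so no excess over chance is read from it. In V-125 tumors, replicate 1 was far above the rest in 4 of the 8, with normalized counts of 195 for Cd2, 65.4 for Cd28, 501 for Fcgr1 and 597 for Egfl7. V-125 replicate 3 was far above the rest for Shc4, at 605, and V-125 replicate 2 for Ucp3, at 86.4. Control replicate 1 was far above the other control tumors for Epcam, at 53468, and control replicate 3 for Car6, at 12218.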

How the results depend on the processing

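The Nrg1 log2 ratio of V-125 over control was 4.30. It was 4.24 to 4.45 over scales, TMM, FPKM, pseudocounts, limma-voom, DESeq2 and edgeR. Leaving out 1 tumor gave 3.80 to 5.08, where the direction was fixed because the groups did not overlap. With the replicate number as a block, the difference of means of log2(normalized count + 1) was 4.30, which a block cannot change with equal groups. The block fit in edgeR gave 4.39. Same-numbered tumors did not clearly deviate together (correlations −0.17 to 0.09), and the main fit used no pairing. Each of these correlations was taken over genes, between the tumors that share a number. With so few pairs of tumors they cannot exclude a pairing or a shared batch. The block gave 19 calls over the listed genes and 0 in the lists. Calls over the listed genes were 120, against 990 with DESeq2, 0 with adjustment over all annotated genes, 66 with DESeq2 adjusted that way (an alternative chosen after seeing the data), and 0 to 237 when 1 tumor was left out. Under TMM the split was 62 higher and 93 lower, against 68 and 52. In the lists 1 gene was called, against 11 with DESeq2, 3 with limma-voom, 0 without a filter, 0 with adjustment over all annotated genes and 0 to 4 when 1 tumor was left out. The cause of these differences was not tested. Of the 614 genes whose groups did not overlap, 535 were among the 1372 listed genes with a mean of at least 10. Leaving out 1 tumor gave 704 to 855. That number could only stay the same or rise, so no stability is read from it. Of the 5 genes nearest to Nrg1, 3 were kept with a pseudocount of 5, 4 in FPKM and 1 to 4 when 1 tumor was left out. Depth limits the control values of Nrg1, which rest on 1 to 17 reads.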
